A study of Mus musculus with 6 samples.

Results

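The genes described here are 10 transcripts of macrophages in the left atrium of the mouse, chosen by name: the pan-macrophage genes Adgre1, Csf1r, Cd68, Mpeg1, Lyz2, Cd14 and Fcgr1, and the genes Trem2, Gpnmb and Lgals3, which are known from lipid-associated macrophages. They make up 10 of the 55471 genes in the deposited table, and all 10 had enough counts to be tested. The animals were male C57BL/6J mice, aged 10 weeks at surgery. In one group the anterior mitral leaflet had been punctured under echocardiographic guidance, which lets blood leak back through the valve (mitral regurgitation, MR), and in the other the apex had been punctured with the leaflet left intact (Sham). The left atrium was taken 2 weeks after surgery, with 3 libraries of poly(A) RNA per group, described as biological replicates. The comparison asks which macrophage transcripts differ in an atrium that remodels under regurgitation. The whole atrium was sequenced, so more cells of a type and more RNA per cell cannot be told apart.

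Cardiac macrophages derive partly from cells that settle in the heart before birth and renew locally, and partly from blood monocytes that enter after injury or load. The kinase receptor encoded by Csf1r keeps macrophages alive, and most tissue macrophages carry F4/80, the product of Adgre1. Lipid-associated macrophages, first described in fat tissue, take up lipid and dying cells through the receptor TREM2 and are rich in lysosomal and lipid-handling proteins. The transcription factor PU.1, encoded by Spi1, binds sites built on the letters GAGGAA in many macrophage promoters.

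Promoter sequences are shown for the pair of members that rose most on the log2 scale (Mpeg1 and Trem2), for the most abundant member (Lyz2) and for a member that did not pass the test (Fcgr1). Each run gives the 250 bases before the annotated start of the gene, from RefSeq on build GRCm38.p6, on the strand of the gene, with the GAGGAA core or its reverse complement TTCCTC in capitals. The Mpeg1 window is chr19:12460520-12460769 (plus strand), the Trem2 window chr17:48346151-48346400 (plus), the Lyz2 window chr10:117282273-117282522 (minus) and the Fcgr1 window chr3:96293970-96294219 (minus).
Mpeg1: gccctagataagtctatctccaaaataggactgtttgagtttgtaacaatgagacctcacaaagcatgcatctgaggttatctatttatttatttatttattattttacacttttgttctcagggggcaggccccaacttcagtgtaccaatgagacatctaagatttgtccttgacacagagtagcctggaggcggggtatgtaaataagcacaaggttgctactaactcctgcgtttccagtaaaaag
Trem2: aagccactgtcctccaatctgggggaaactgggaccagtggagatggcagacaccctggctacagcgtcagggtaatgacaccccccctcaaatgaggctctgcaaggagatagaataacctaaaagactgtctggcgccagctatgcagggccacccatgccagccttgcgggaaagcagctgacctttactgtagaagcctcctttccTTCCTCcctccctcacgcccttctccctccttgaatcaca
Lyz2: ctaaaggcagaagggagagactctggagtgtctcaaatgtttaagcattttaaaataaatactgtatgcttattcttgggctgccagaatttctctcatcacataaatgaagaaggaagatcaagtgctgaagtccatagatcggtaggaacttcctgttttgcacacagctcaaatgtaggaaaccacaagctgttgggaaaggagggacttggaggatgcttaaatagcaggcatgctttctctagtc
Fcgr1: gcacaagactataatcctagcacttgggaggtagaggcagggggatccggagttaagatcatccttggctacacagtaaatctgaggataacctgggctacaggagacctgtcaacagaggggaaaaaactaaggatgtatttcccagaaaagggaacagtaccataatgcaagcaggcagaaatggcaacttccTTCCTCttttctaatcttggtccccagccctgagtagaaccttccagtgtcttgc
Windows were held for 7 of the 10 members. The core stood in 3 of them (Trem2, Fcgr1 and Cd68), and in 23.3% of the 32851 promoter windows of the same length. Counted from the annotated start, it stood at position -40 in Trem2, -55 in Fcgr1 and -225 in Cd68. For Cd68 and Gpnmb the bases that follow the RefSeq start were in no GENCODE transcript, so these windows may not adjoin the starts used here. Neither the M-box TCATGTG, which factors of the MITF family bind, nor the E-box CACGTG stood in any of the 7 windows, against 3.25% and 6.02% of all windows, with both strands searched. These are matches of letters in 1 window per gene and were not related to binding.

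Gene counts summed to between 14124407 and 20039490 per library. Mitochondrial genes held 0.951% to 1.79% of the counts in Sham and 0.485% to 0.653% in MR, so this share did not overlap between the groups, and its part in the results was not tested. Levels are given as CPM (counts scaled to the library total after TMM normalization) or, between genes, as the authors' TPM, which is also scaled by gene length. The atrial muscle genes Myl7, Myl4 and Sln were abundant in every library, and the summed level of 6 atrial cardiomyocyte markers was 23761 to 27088 CPM in Sham and 14391 to 20022 CPM in MR, with all 6 called lower. All 6 calls ended without Sham library 1 and without Sham library 3, 5 without MR library 3 and 3 without Sham library 2 or MR library 2, and 4 (Myl7, Sln, Tnnt2 and Actn2) ended when scaled by library totals. Of 8 fat cell markers, 6 could be tested and 4 rose, calls that all ended without Sham library 1 and without Sham library 2. Adipoq, the hormone gene of fat cells, was at 43.9 and 67 CPM in MR libraries 1 and 2, at 0.449 CPM in MR library 3 and at 0 to 2.02 CPM in Sham. All 5 mesothelial markers rose, from a summed 128 to 238 CPM in Sham to 446 to 732 CPM in MR with the highest value in MR library 2. All 5 general leukocyte markers rose too, among them Ptprc (CD45), from 6.77 ± 0.877 to 14.9 ± 3.04 CPM (SD, n = 3). Without Sham library 1, 4 of these 5 calls ended, all but that of Ptprc, and those of Cd52 and Cd53 also ended without Sham library 2 or 3 or MR library 2. Over all genes tested, 11.8% were called higher and 10.6% lower.

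Macrophage genes were higher in the regurgitant atrium, but not all of them. Of the 10 members, 8 rose and 0 fell by the quasi-likelihood test of edgeR at an adjusted p of 0.05, while 11.8% of the 15218 genes tested rose and 22.4% changed in either direction. The members and the lists below were chosen with earlier results of these data known. Their shares beside those of all genes are therefore descriptions and no test of a list. At an unadjusted p below 0.05 the members were likewise 8 higher and 0 lower, beside 2896 higher and 2721 lower of the 15218 genes tested. DESeq2 called 7 members higher and 0 lower, beside 1617 higher and 1577 lower over all genes. The MR values lay above all Sham values for 8 members, against 20.6% of genes tested, and 41.9% of genes did not overlap in either direction. The median log2 fold change was 0.76 over the members and 0.00 over all genes. Mpeg1 and Trem2 changed most and Gpnmb least. These counts depended on single libraries. Without Sham library 1 the calls over all genes fell from 3408 to 1583. There 5 members passed, and the median log2 fold change of the members was 0.72. When MR was represented by library 3 alone, the library with few fat cell transcripts, 4 passed (Mpeg1, Cd14, Trem2 and Lgals3).

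**Figure D1:**
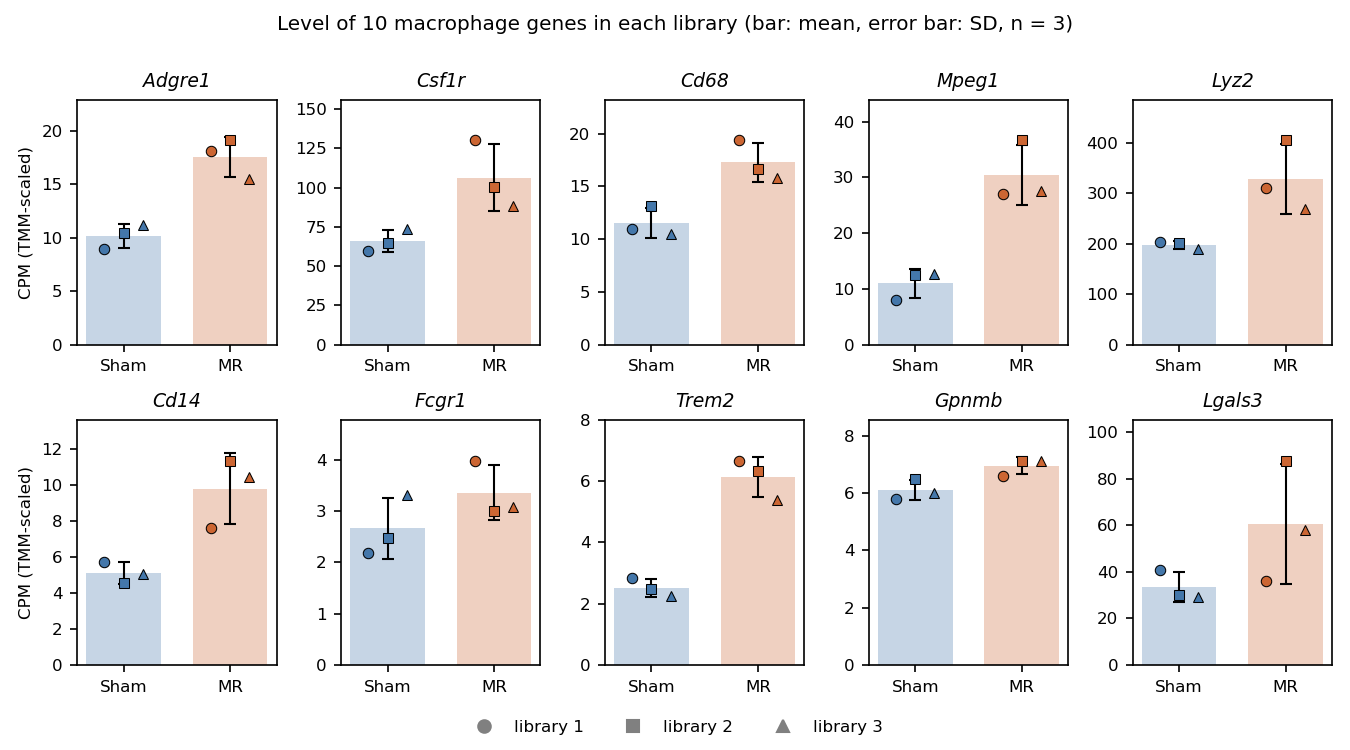
Level of each of the 10 genes in CPM (vertical axes, from 0) in the 3 Sham and 3 MR libraries; bars are means, error bars SD and markers single libraries. The MR points lie above all Sham points except for Fcgr1 and Lgals3, and for Gpnmb the groups are close.

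**Figure D2:**
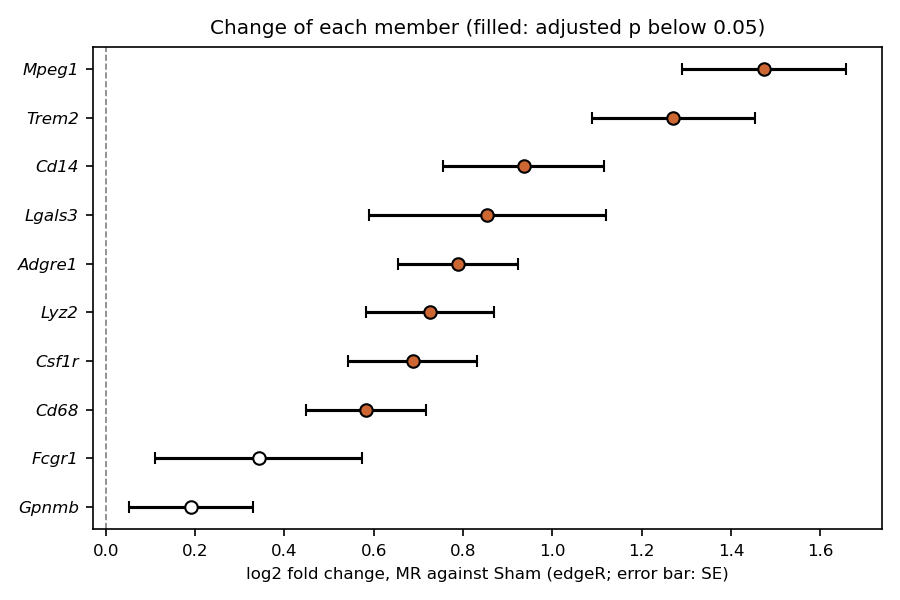
The log2 fold change of MR against Sham from edgeR for each member (horizontal axis) with its SE; filled points passed an adjusted p of 0.05. Mpeg1 and Trem2 stand farthest to the right, and the open points Fcgr1 and Gpnmb did not pass.

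Among the surface receptors, Adgre1 (ENSMUSG00000004730), an adhesion G protein-coupled receptor, was at 8.95, 10.4 and 11.1 CPM in Sham libraries 1 to 3 and at 18.1, 19.1 and 15.5 CPM in MR libraries 1 to 3. The groups did not overlap, and every MR library was above every Sham library. The log2 fold change was 0.79 ± 0.13 (SE; edgeR adjusted p = 0.00519), and the call held with each library left out in turn. Csf1r (ENSMUSG00000024621), the receptor for CSF1 and IL-34, was at 59.7, 64.9 and 73.8 CPM in Sham and at 130, 101 and 88.5 CPM in MR. The groups again did not overlap, with MR library 1 highest. Its log2 fold change was 0.69 ± 0.14 (edgeR adjusted p = 0.0104), and it no longer passed once Sham library 1 was left out (0.0545). In the GENCODE annotation of an older build an exon of Hmgxb3 on the opposite strand overlaps Csf1r, and the strand setting of the counting is not given in the sources used here. Its count may hold reads of that gene.

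Fcgr1 (ENSMUSG00000015947), the high-affinity receptor for IgG, was low, with 121 counts over the 3 Sham libraries and 170 over the 3 MR libraries. It stood at 2.18, 2.48 and 3.33 CPM in Sham and at 3.99, 3.01 and 3.09 CPM in MR. Sham library 3 lay above MR libraries 2 and 3, and the log2 change of 0.34 ± 0.23 missed the threshold (edgeR adjusted p = 0.312). Cd14 (ENSMUSG00000051439), the co-receptor that hands bacterial lipopolysaccharide to TLR4, was at 5.7, 4.52 and 5.06 CPM in Sham and at 7.59, 11.3 and 10.4 CPM in MR. The groups did not overlap, MR library 1 being the nearest to Sham. Cd14 rose by 0.94 ± 0.18 on the log2 scale (edgeR adjusted p = 0.00794).

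Of the members with lysosomal or granule products, Mpeg1, Lyz2 and Cd68 rose. Mpeg1 (ENSMUSG00000046805) encodes perforin-2, a pore-forming protein that acts on engulfed bacteria. It was at 8.04, 12.5 and 12.6 CPM in Sham and at 27.1, 36.6 and 27.6 CPM in MR. The lowest MR library was well above the highest Sham library. Its log2 fold change of 1.47 ± 0.18 (edgeR adjusted p = 0.00157) was the highest of the 10, and it also passed a test against a 1.5-fold change (glmTreat of edgeR, adjusted p = 0.0137). Lyz2 (ENSMUSG00000069516), lysozyme of myeloid cells, was at 204, 201 and 190 CPM in Sham and at 311, 405 and 268 CPM in MR. The Sham libraries lay close together and the MR libraries spread widely, with MR library 2 highest. Lyz2 rose by 0.73 ± 0.14 on the log2 scale (edgeR adjusted p = 0.00836). Lyz1, a close copy from which reads can be shared, was far lower, at 0.852 to 1.16 CPM in Sham and 1.15 to 8.32 CPM in MR, and is named because of this likeness. Cd68 (ENSMUSG00000018774), a lysosomal membrane glycoprotein used to stain macrophages, was at 11, 13.1 and 10.5 CPM in Sham and at 19.4, 16.6 and 15.8 CPM in MR. The groups did not overlap. Its log2 fold change of 0.58 ± 0.13 (edgeR adjusted p = 0.0146) no longer passed without Sham library 1 (0.0609) or Sham library 3 (0.0509).

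The 3 genes known from lipid-associated macrophages did not move alike. Trem2 (ENSMUSG00000023992), the lipid-sensing receptor, was at 2.82, 2.48 and 2.24 CPM in Sham and at 6.67, 6.34 and 5.39 CPM in MR, from 118 and 309 counts. The MR libraries lay close together, all above Sham. Trem2 rose by 1.27 ± 0.18 on the log2 scale (edgeR adjusted p = 0.00253), held with each library left out and passed against a 1.5-fold change (glmTreat of edgeR, adjusted p = 0.0334). Gpnmb (ENSMUSG00000029816), a lysosomal and surface glycoprotein of lipid-laden macrophages and of pigment cells, was at 5.81, 6.49 and 6 CPM in Sham and at 6.6, 7.11 and 7.13 CPM in MR. The groups did not overlap, but the gap between them was narrow. The log2 fold change of 0.19 ± 0.14 did not pass (edgeR adjusted p = 0.346). Pigment cells, which also express Gpnmb, had 6 markers listed, of which 1 could be tested, and their sum was 24.8 to 28.4 CPM in Sham and 37.7 to 50 CPM in MR. Most of that sum was Mlana, the marker tested, while Tyr was at or near 0 in every library. Mlana was called higher (log2 fold change 0.60), but not without Sham library 1, 2 or 3 (edgeR adjusted p = 0.0535, 0.0697 and 0.0552). The part of pigment cells in the Gpnmb level was not tested.

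Lgals3 (ENSMUSG00000050335), the sugar-binding protein galectin-3, was at 41, 30 and 29.3 CPM in Sham and at 36.2, 87.8 and 57.8 CPM in MR. MR library 1 lay below Sham library 1, so the groups overlapped, and MR library 2 was highest. The log2 fold change was 0.85 ± 0.27 (edgeR adjusted p = 0.0438). The call ended without Sham library 1, 2 or 3 (adjusted p = 0.072, 0.134 and 0.137) and without MR library 2 or 3 (0.123 and 0.0635), the log2 fold change without MR library 2 being 0.49. DESeq2 and limma-voom did not call it either (adjusted p = 0.112 and 0.0674). The mesothelial markers Msln and Upk3b were highest in MR library 2 as well, at 180 and 354 CPM, but in MR library 1, where Lgals3 was low, they were at 112 and 216 CPM, above all Sham libraries. Their part in the result was not tested.

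The authors' deposited table gives log2 fold changes in the same direction for all 10 members and an adjusted p below 0.05 for 7. In that table Mpeg1 stands at 1.64 and Trem2 at 1.19. Lgals3 is not among the 7 there, with a log2 fold change of 0.31 and an adjusted p of 0.155 in the authors' deposited table.

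Scaling bore on the smaller changes. TMM factors were 0.914 to 0.941 in Sham and 1.04 to 1.11 in MR. On the authors' TPM the median log2 fold change of all genes was 0.28 (limma on log2 of TPM plus 1). On that scale all 10 members passed, while 38.6% of all genes were called higher, and MR lay above Sham in TPM for all 10 members and for 52.2% of genes. There the log2 fold changes of Gpnmb and Fcgr1 were 0.36 and 0.49 (limma adjusted p = 0.0233 and 0.0392). The added 1 shrinks the changes of genes at low TPM such as these, so their distance from the median gene cannot be read from this scale. By edgeR on library totals Gpnmb and Fcgr1 were at 0.396 and 0.546, against a median of 0.208 over all genes.

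Per length, Lyz2 was the most abundant member by far, at 307 ± 6.61 TPM in Sham and 645 ± 159 TPM in MR (SD, n = 3). It made up 71.9% to 75.7% of the summed TPM of the 10 genes in every library. In Sham it was followed by Lgals3 (36.7 TPM), Csf1r (23.4 TPM) and Cd68 (18.7 TPM). Adgre1, Cd14 and Mpeg1 lay between 5.2 and 6.42 TPM with ranges over libraries that overlapped, and so did Fcgr1 (2.11 TPM) and Gpnmb (1.91 TPM). Trem2 was lowest in Sham, at 1.04 ± 0.104 TPM. In MR, Trem2 (3.2 TPM) overlapped with both Fcgr1 (3.35 TPM) and Gpnmb (2.74 TPM), though these did not overlap with each other. Likewise Cd14 (14.5 TPM) overlapped with Mpeg1 (18.1 TPM) and Adgre1 (14 TPM), and all MR values of Mpeg1 lay just above those of Adgre1. Trem2 therefore had the lowest mean TPM of the 10 in Sham and Gpnmb the lowest in MR, an order that rests on the gene lengths the authors used. The summed TPM of the 10 genes was 398 to 418 in Sham and 696 to 1086 in MR.

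**Figure D3:**
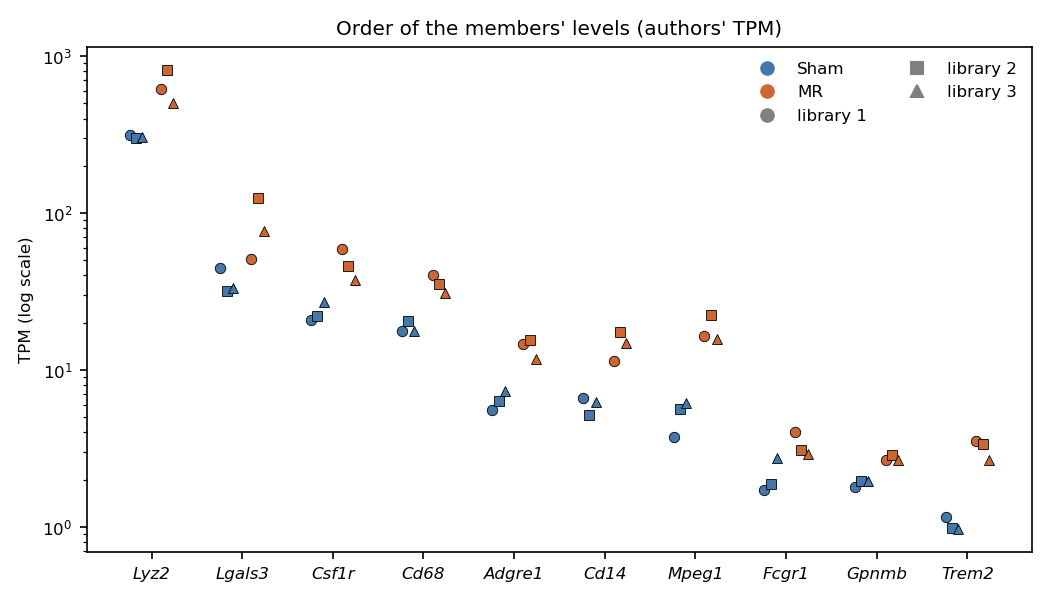
Level of each member in the authors' TPM (vertical axis, log scale) in the 3 Sham and 3 MR libraries, ordered by the Sham mean. Lyz2 stands above the rest in both groups, and Trem2, Gpnmb and Fcgr1 lie at the low end.

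The members were also set against each other within a library, as the CPM of each divided by that of Adgre1. Of the 9 ratios, 2 were higher in every MR library than in every Sham library, 2 were lower and 5 overlapped, and these are descriptions with no test. The share of all genes whose ratio to Adgre1 did not overlap was not computed, so these counts cannot be set against those of other genes. In CPM itself 41.9% of genes tested did not overlap in either direction. Mpeg1 was at 0.899, 1.2 and 1.13 times the Adgre1 level in Sham and at 1.49, 1.92 and 1.79 times in MR. Trem2 was at 0.315, 0.238 and 0.201 times in Sham and at 0.368, 0.332 and 0.348 times in MR. Both therefore ran ahead of Adgre1. The ratio of Gpnmb was lower in MR, going from 0.649, 0.622 and 0.539 to 0.365, 0.372 and 0.461 times the Adgre1 level. Fcgr1 was at 0.244, 0.238 and 0.299 times in Sham and at 0.22, 0.158 and 0.2 times in MR. Adgre1 itself rose (log2 fold change 0.79), so the lower ratios of Gpnmb and Fcgr1 go with smaller log2 fold changes (0.19 and 0.34). Csf1r, Cd68, Lyz2, Cd14 and Lgals3 overlapped, and Csf1r averaged 6.5 ± 0.244 times in Sham and 6.06 ± 0.996 times in MR. With Csf1r as the denominator the same counts of 2, 2 and 5 were found, again with Mpeg1 and Trem2 higher and Gpnmb and Fcgr1 lower.

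**Figure D4:**
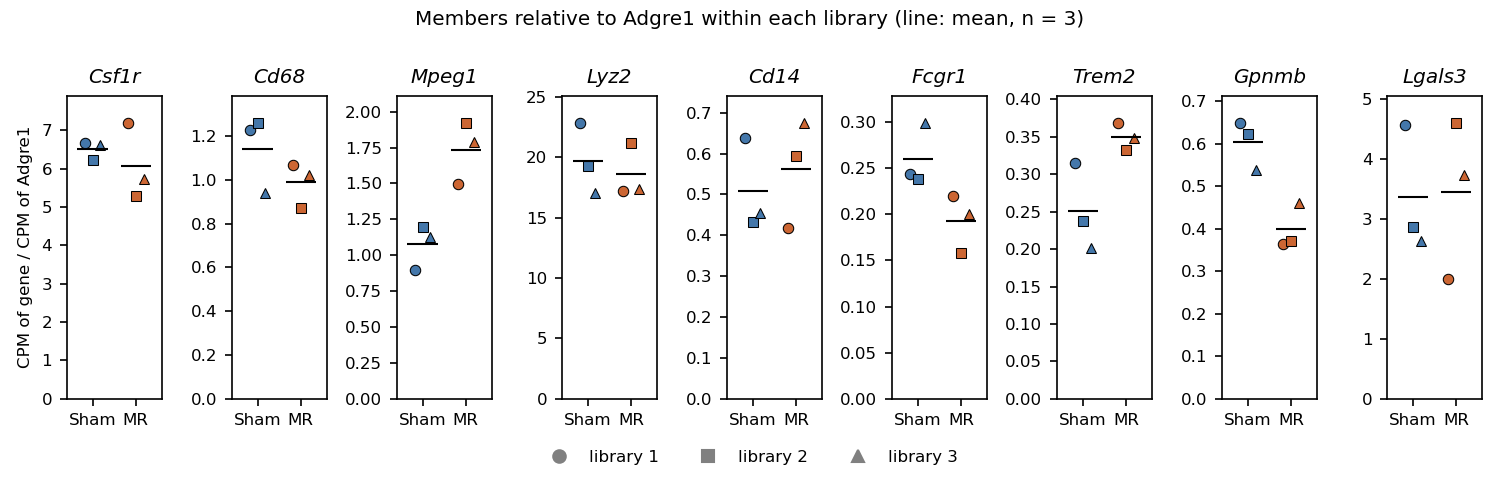
Ratio of each member's CPM to that of Adgre1 (vertical axes, from 0) in each library, with lines at the group means. Mpeg1 and Trem2 are higher in MR, Fcgr1 and Gpnmb lower, and the other 5 overlap.

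The libraries of a group did not share a single order. Within MR, library 2 was highest for 5 members (Adgre1, Mpeg1, Lyz2, Cd14 and Lgals3), library 1 for 4 (Csf1r, Cd68, Fcgr1 and Trem2) and library 3 for Gpnmb alone. Profiles were compared as log2 CPM centred on the mean over the 6 libraries, against 12952 other genes. Nearest to Adgre1 were Prkcd, Adgre5, Fgf2, Slc25a45 and Cd84, with a root mean square difference of 0.0562 to 0.0682. Nearest to Mpeg1 were Lgals3bp, Col27a1, Fermt3, Ankrd1 and Slc26a10 (0.131 to 0.17), and nearest to Trem2 Wdr62, Fmo1, Stk32b, Ptgir and Lfng (0.0794 to 0.121). The nearest to Gpnmb were Itsn2, Cdk5rap2, Hmbox1, Tmem140 and Pnisr (0.014 to 0.0305).

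Upstream of CSF1R, Csf1, the ligand gene, rose from 58.9 ± 0.638 to 89.7 ± 7.28 CPM (SD, n = 3), a log2 change of 0.61 ± 0.09 (edgeR adjusted p = 0.003). Of 12 tested genes of CSF1R ligands, related receptors and myeloid transcription factors, 6 rose (50%, against 11.8% of all genes) and 0 fell. The median log2 change of the list was 0.56. Csf2ra, a receptor chain for GM-CSF, rose by 0.84 ± 0.15 and Runx1, a blood cell regulator, by 1.11 ± 0.29 on the log2 scale. Cebpa, a regulator of myeloid cells and also of fat cells, rose by 1.53 ± 0.36, with 20.1, 20.8 and 6.68 CPM in the MR libraries in order, high where Adipoq was high. The part of fat cells in this value was not tested. Spi1 did not pass, with 0.34 ± 0.28 (edgeR adjusted p = 0.404), nor did Il34 (0.57 ± 0.30, adjusted p = 0.192). The call of Cebpa ended without Sham library 1, 2 or 3 (0.0613, 0.0596 and 0.0562) and that of Runx1 without Sham library 1 or 2 or MR library 1 or 2 (0.0989, 0.0836, 0.0559 and 0.0503). Of this list, 2 passed without Sham library 1 or 2, and 3 passed without MR library 1, without MR library 2 or with MR library 3 alone.

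Of 10 tested adaptor and signalling genes of TREM2, 5 rose (50%, against 11.8% of all genes) and 0 fell. The median log2 change of the list was 0.63. Tyrobp, which encodes the adaptor DAP12, rose from 9.55 ± 2.17 to 14.6 ± 2.19 CPM, a log2 change of 0.60 ± 0.18 (edgeR adjusted p = 0.0371). Apoe, a lipid carrier that binds TREM2, rose from 721 ± 54.5 to 1153 ± 167 CPM (0.68 ± 0.13, edgeR adjusted p = 0.00798). Inpp5d, the phosphatase SHIP1, rose by 0.65 ± 0.18 and Vav1, an exchange factor, by 1.29 ± 0.32, whereas the kinase gene Syk did not pass (0.20 ± 0.09, adjusted p = 0.131). The call of Tyrobp ended without Sham library 2 or 3 or MR library 2 (0.0972, 0.104 and 0.113), that of Vav1 without Sham library 1 or 2 or MR library 2 (0.0732, 0.0717 and 0.063), and that of Inpp5d without Sham library 1 or 3 or either of MR libraries 1 and 2 (0.11, 0.0917, 0.066 and 0.0877). Without MR library 2, 1 gene of this list passed, without Sham library 1, 2 or 3 there were 2, and with MR library 3 alone 0 did.

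Other genes known from lipid-associated macrophages mostly did not pass. Some stood far above Trem2 (mean 2.52 CPM in Sham), such as Lpl (2000 CPM), Ctsb (631 CPM) and Ctsd (356 CPM). The part of macrophages in these levels was not tested. Of 14 tested, 2 rose and 1 fell, and the 14.3% that rose is near the 11.8% of all genes. The median log2 change of the list was 0.21. Itgax, the integrin CD11c, rose from 0.145 ± 0.146 CPM (6 counts in Sham) to 1.73 ± 0.329 CPM, a log2 change of 3.64 ± 0.58 (edgeR adjusted p = 0.00387). Lipa, lysosomal acid lipase, rose by 0.42 ± 0.11 on the log2 scale. Cd36, a fatty acid receptor that cardiomyocytes and vessels also express, fell from 656 ± 73.1 to 474 ± 42.8 CPM (-0.47 ± 0.12, edgeR adjusted p = 0.0222). Clec7a did not pass (0.69 ± 0.25, edgeR adjusted p = 0.0745). Spp1 and Mmp12 were not tested, with 1 and 5 counts in Sham and 24 and 39 in MR. The MR values lay above all Sham values for 5 of the 14 tested genes, against 20.6% of all genes. The call of Cd36 ended without Sham library 1 or 2 or MR library 2 (0.0857, 0.0667 and 0.0578) and when scaled by library totals (0.103). That of Lipa ended without Sham library 1, 2 or 3 or MR library 2 (0.0804, 0.0855, 0.06 and 0.0766), and 1 gene of the list passed without Sham library 1.

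Of 17 tested lysosome and phagosome genes, 7 rose (41.2%, against 11.8% of all genes) and 1 fell. The median log2 change of the list was 0.14. Ctss, the protease cathepsin S of antigen-presenting cells, rose from 10.2 ± 0.454 to 20.4 ± 1.08 CPM, a log2 change of 1.00 ± 0.11 (edgeR adjusted p = 0.000901). Acp5, tartrate-resistant acid phosphatase, rose from 0.571 ± 0.196 to 6.86 ± 4.02 CPM (3.57 ± 0.52, adjusted p = 0.00267), and Ctsz and Laptm5 by 0.53 ± 0.10 and 0.87 ± 0.19. The broadly expressed Lamp1 did not pass (log2 change -0.20 ± 0.09), while Mitf, a regulator of lysosomal genes, fell by 0.35 (edgeR adjusted p = 0.0147). Of the MITF family, Tfe3 (0.31) and Tfec (1.44, from 15 counts in Sham) were called higher (edgeR adjusted p = 0.0405 and 0.0374). Both of these calls ended with any library left out. Tfeb did not pass (-0.32, edgeR adjusted p = 0.109). The call of Mitf ended without MR library 2 or 3 (0.0579 and 0.0527) and when scaled by library totals (0.218). The call of Laptm5 ended without Sham library 1 (0.0564). Without MR library 1, 5 genes rose and 3 fell, and DESeq2 called 5 higher and 2 lower. Between 4 and 8 genes of this list passed with 1 library left out, 4 of them without Sham library 1, MR library 2 or MR library 3, and 2 with MR library 3 alone.

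**Figure D5:**
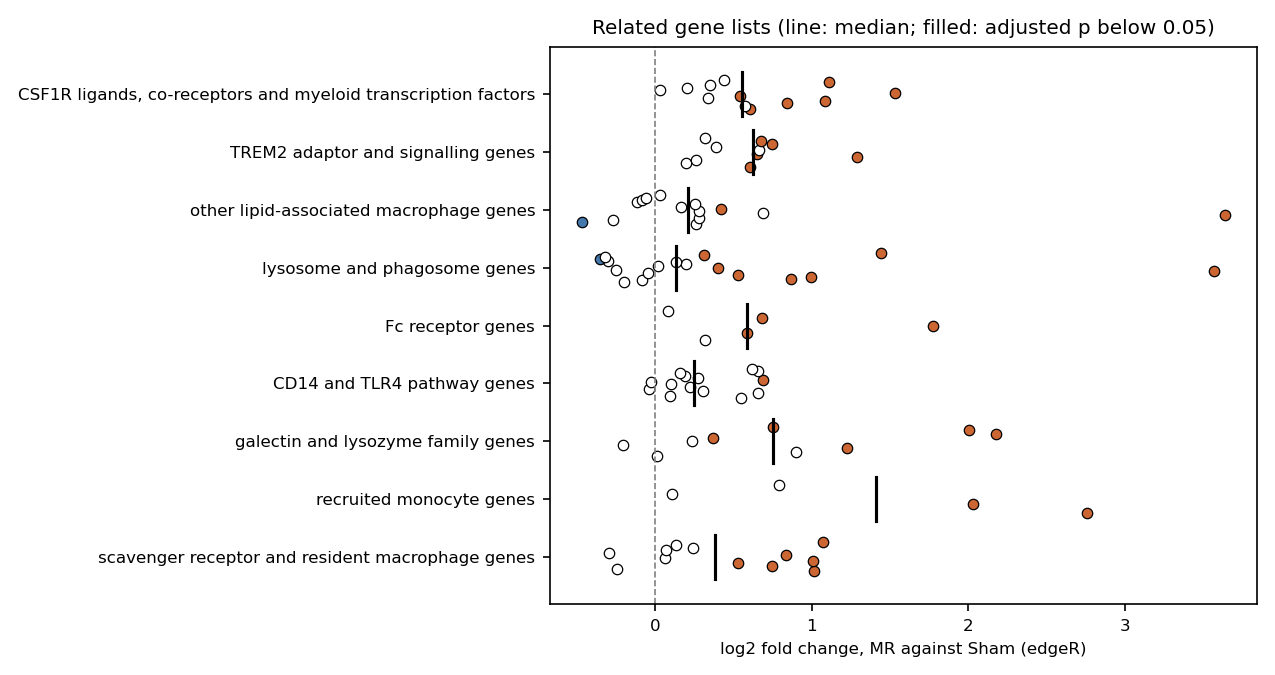
The log2 fold change of MR against Sham from edgeR (horizontal axis) for the tested genes of 9 related lists; filled points passed an adjusted p of 0.05, orange higher and blue lower, and lines are medians. Every median lies right of 0, and the lowest is that of the lysosome list, at 0.14.

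Fc receptor genes other than Fcgr1 rose in 3 of 5 tested cases (60%, against 11.8% of all genes), with 0 lower. Fcgr3, a low-affinity IgG receptor, rose from 14 ± 0.688 to 21.1 ± 1.09 CPM, a log2 change of 0.59 ± 0.10 (edgeR adjusted p = 0.00568) and Fcer1g, the shared signalling chain, by 0.69 ± 0.14. Fcgr4 rose by 1.78 ± 0.48 from 18 counts in Sham, and this was lost without Sham library 1 or 3 or MR library 2 or 3 (0.0807, 0.0645, 0.0554 and 0.077). With MR library 3 alone 0 of the 5 passed. Of 14 genes of the CD14 and TLR4 pathway, 1 rose (7.14%, against 11.8% of all genes) and 0 fell: Irak3, an inhibitor of this pathway, went from 5.45 ± 0.833 to 8.78 ± 0.289 CPM (0.69 ± 0.15, edgeR adjusted p = 0.0126). This list had 2 calls without Sham library 3, MR library 1 or MR library 3. Tlr4 did not pass (0.55 ± 0.21, adjusted p = 0.0838).

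Of 9 tested relatives of the members in the galectin, lysozyme and adhesion receptor families, 5 rose (55.6%, against 11.8% of all genes) and 0 fell. Lgals3bp, which encodes a secreted partner of galectin-3, rose from 27.5 ± 6.78 to 64 ± 8.81 CPM, a log2 change of 1.22 ± 0.17 (edgeR adjusted p = 0.00241). Adgre5 (0.76 ± 0.11) and Adgre4 (2.00 ± 0.36, from 16 counts in Sham), paralogues of Adgre1, rose, and so did Lgals9 (0.37 ± 0.10). Lgals1 did not pass (0.01 ± 0.26, adjusted p = 0.98). The call of Lgals9 ended with any library but MR library 1 left out (adjusted p up to 0.112). Of this list, 3 passed without Sham library 1, 2 or 3 or MR library 2, and 2 with MR library 3 alone.

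Of 4 tested genes of recruited monocytes, 2 rose (50%, against 11.8% of all genes) and 0 fell. Ccr2, the chemokine receptor by which monocytes leave bone marrow, went from 1.88 ± 0.771 to 12.5 ± 2.88 CPM, or 2.76 ± 0.27 on the log2 scale (edgeR adjusted p = 0.000511). Without Sham library 1 or MR library 2, and with MR library 3 alone, 1 of the 4 passed. Of 12 scavenger receptor and resident macrophage genes, 6 rose (50%, against 11.8% of all genes) and 0 fell. Among those that rose was the hyaluronan receptor gene Lyve1, which resident macrophages share with lymphatic vessels (1.01 ± 0.14). Msr1, a scavenger receptor (1.02 ± 0.21), Cd163, a haemoglobin receptor (0.75 ± 0.21), and the chemokine receptor gene Cx3cr1 (1.07 ± 0.29) rose too. Mrc1, the mannose receptor, and Folr2, both of resident macrophages, did not pass (log2 fold changes -0.24 and 0.06). Without MR library 1, 5 genes of this list rose and Mrc1 was called lower (-0.34, edgeR adjusted p = 0.0451), with Folr2 at -0.14. With no filter on low counts, F13a1 was called lower (-0.31, edgeR adjusted p = 0.0476). The call of Cd163 ended without Sham library 1, 2 or 3 (0.104, 0.0898 and 0.0674) and that of Cx3cr1 without Sham library 1 or 3 or MR library 2 (0.109, 0.0793 and 0.0835). Of this list, 2 passed without Sham library 1 or 3, 3 without MR library 2 and 1 with MR library 3 alone. Of 8 neutrophil markers, Ly6g and Ngp had 0 counts in every library. The only one tested, the growth factor receptor gene Csf3r, rose by 1.12 ± 0.27 on the log2 scale (edgeR adjusted p = 0.0173), a change that was lost without Sham library 1 or 2 or MR library 2 (0.0795, 0.0658 and 0.0524). The 8 markers summed to 1.81 to 3.04 CPM in Sham and 3.92 to 7.56 CPM in MR. The 7 dendritic cell markers summed to 20.2 to 23.2 CPM in Sham and 23.7 to 32.7 CPM in MR. Of the 3 tested, 2 rose (Cd209a and Zbtb46), and both calls ended without Sham library 1. Clec10a did not pass, but was called lower without MR library 1 (log2 fold change -0.90, edgeR adjusted p = 0.0184). With MR library 3 alone its log2 fold change was -1.26. Of 6 fibroblast markers 1 rose and 1 fell. The part of these cells in the results was not tested. Over the lists in which 0 genes fell, at most 1 gene was lower at an unadjusted p below 0.05, and DESeq2 called 0 lower. Among all 15218 genes tested, 2721 were lower at that p, and DESeq2 called 1577 genes lower.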

How the data were processed

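The left atrium of 6 mice was measured, 3 Sham and 3 MR, with groups taken from the sample titles. Counts per gene were deposited by the authors, per the file headers, with no normalization. TPM were deposited too, scaled by the authors for gene length and library, per the file headers. The authors also deposited their own log2 fold change, p-value and adjusted p, and which tool made them is not given in the sources used here. The submitters' processing notes name fastp, HISAT2 2.1.0, featureCounts of Subread 2.0.1, DESeq2 and build GRCm39. Every per-sample column was used. Counts were tested with edgeR 4.0.16 (quasi-likelihood test, TMM, filterByExpr, group only) in R 4.3.3, with Benjamini-Hochberg adjustment over 15218 genes. Standard errors are the absolute coefficient over the root of the F statistic. Alternatives used DESeq2 1.42.0 and limma 3.58.1, other scalings and filters, a replicate block and single libraries left out. The MR library 3 fit was chosen after seeing the data, and takes the spread from Sham.

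Members and lists were chosen with earlier results of these data known. The text names all members, up to 4 called genes per list with the smallest p (the 2 most abundant where none passed), the 5 nearest profiles of Adgre1, Mpeg1, Trem2 and Gpnmb (among genes with a mean of at least 1 CPM, without provisional symbols), and markers of other cell types. 1 gene that this rule selects is not reported here. Genes named as not passing, Mitf, Tfe3, Tfec, Lyz1, Spp1, Mmp12, Lpl, Ctsb and Ctsd were chosen after their values were seen. Promoter windows came from RefSeq on GRCm38.p6, an older build than the counts.

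The edgeR step was tested on simulated counts for MR against Sham with the real means, gene-wise spread and library sizes of 15218 genes, in 5 draws. It recovered 42% of genes changed 1.5-fold, 75.2% at 2-fold, 97.2% at 4-fold and 99.6% at 8-fold. Of all simulated calls 9.04% were unchanged genes, 12 to 25 per draw, which is above the nominal share. Calls near the threshold may therefore be less secure than their adjusted p states. Far fewer genes were changed in each draw than the 3408 called in the data. The simulated percentages of recovered and of unchanged genes need not hold for the data. P-values of unchanged genes were below 0.05 in 5% of cases. The self-test at first used 1 draw with a fixed limit on false calls, which that draw exceeded; it was replaced by these 5 draws, that draw included. No library was a duplicate: within groups, chi-square over its degrees of freedom was 13.1 to 22.8.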

Additional observations from a re-analysis of the deposited data

How the results depend on the processing

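All 10 members kept a positive log2 fold change under each of 15 alternative settings. Mpeg1 and Trem2 kept their calls in all 15, with log2 fold changes from 1.27 to 1.68 and from 1.04 to 1.48. The 1.04 for Trem2 came from limma on log2 of TPM plus 1, where the added 1 shrinks changes of genes at low TPM. On counts the lowest value for Trem2 was 1.19. The genes called, 3408 in all, were 250 against a 1.5-fold change (glmTreat), 6120 with limma on TPM and 976 with library 3 alone for MR. Higher and lower calls split into 1793 and 1615, into 4025 and 574 when scaled by library totals (a median shift of 0.21), and into 5871 and 249 on TPM. Of the members, 2 passed glmTreat and 4 passed with MR library 3 alone.

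Counts called per list are given in the order CSF1R, TREM2, other lipid-associated, lysosome, Fc receptor, CD14 and TLR4, galectin and lysozyme, monocyte and scavenger. With glmTreat they were 0, 0, 1, 2, 0, 0, 2, 1 and 0. With limma on TPM the CSF1R, TREM2, other lipid-associated, Fc receptor and CD14 lists had 10, 9, 8, 5 and 8. Scaled by library totals the TREM2, other lipid-associated and CD14 lists had 8, 7 and 6. With no filter on low counts the other lipid-associated, CD14 and monocyte lists had 6, 4 and 5, and with DESeq2 the first pair had 5 and 2. With MR library 3 alone the counts were 3 for CSF1R, 0 for TREM2 and Fc receptors, 2 for the lysosome and galectin lists and 1 for the monocyte and scavenger lists. The causes were not tested.

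Without Sham library 1, Sham library 2 or MR library 2 the genes called were 1583, 1897 and 1941. With 1 library left out, 1583 to 3453 genes, 5 to 8 members and, in the same order of lists, 2 to 6, 1 to 5, 1 to 3, 4 to 8, 2 to 3, 1 to 2, 3 to 5, 1 to 3 and 2 to 6 genes passed. With the replicate block 3085 genes and 8 members passed, 5 of the lysosome list and 2 of the CD14 list. Same-numbered libraries did not deviate together (r = -0.00981, -0.0101 and -0.186) and 0 of 6 correlated best with its own number, so the numbers were not taken as pairs. Ratios to Csf1r in place of Adgre1 left 4 of 9 not overlapping, as before. The ratio of Lyz2 to Trem2 in Sham was 298 in TPM and, by construction, in CPM per length. A floor of 3 counts was 0.15 to 0.212 CPM, so depth limits Itgax, Fcgr4, Adgre4, Spp1, Mmp12 and Tfec. Intervals beyond the spread of 3 libraries are not given.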
